A study of Mus musculus with 24 samples.

Results

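The SLC25 mitochondrial carriers were followed along the mouse jejunal villus through all genes whose symbol in the deposited count table is Slc25a followed by a number alone. The table held 42 such genes among its 17811 rows, and 28 of the 42 passed the filter on low counts, as did 9328 genes in all. The samples came from the jejunum of 4 male mice of the C57BL/6 strain, 10 weeks old and fed regular chow, and the labels name no treatment or altered allele in any group. Epithelium was detached by EDTA, and CD73 and CD26 staining guided flow cytometry into 6 zones from each animal. V1 is labelled most bottom, V2 bottom, V3 bottom-middle, V4 middle, V5 middle-tip and V6 tip, and each zone of a mouse gave 1 bulk library. Each zone is thus a sorted fraction placed by surface staining, and 24 libraries entered the analysis. Related genes of the same fold with other names, such as Ucp2 and Mtch2, fall outside the name pattern.

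Carriers of this family sit mostly in the inner mitochondrial membrane, which is closed to charged metabolites. They move adenine nucleotides, phosphate, organic acids, amino acids, cofactors and metal ions between cytosol and matrix, and so join cytosolic pathways to respiration. In enterocytes these routes serve the burning of luminal glutamine and glutamate, citrulline synthesis and the export of reducing equivalents.

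Values after ± beside a level or a share are SD over the 4 mice (SD, n = 4), and those beside a slope or curvature are SE. Levels are CPM, the count of unique molecular identifiers (UMIs, which mark single molecules) scaled to a common library size by TMM. The libraries read the 3-prime end of transcripts, so counts were not divided by gene length, and levels are compared here within a gene. Slopes are log2 changes per zone ± SE from V1 to V6, taken as equally spaced, and a gene is called at an adjusted p under 0.05 over all genes tested (edgeR quasi-likelihood test, Benjamini-Hochberg). Library totals ran from 806541 to 2266261 UMIs with a median of 1502948.5, so a gene with few UMIs carries a wide counting error.

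The libraries were not pure enterocytes, and their makeup changed over the lower zones. All 10 goblet cell markers fell on the slope, and their sum went from 73825 ± 25065 CPM at V1 to 37228 ± 14360 in V2 and 11832 ± 5052 in V3, then stayed between 11566 and 11826 CPM in the means of V4 to V6. Of 10 enterocyte markers 9 rose, and their sum went from 17051 ± 6992 CPM at V1 to 85711 ± 13865 at V6. No enterocyte or goblet marker was at 0 over all libraries. Of 12 crypt and dividing cell markers 6 fell, and the sum of all 12 went from 312 ± 63.6 CPM at V1 to 146 ± 11.0 at V6. Leukocyte markers went from 29.3 ± 24.5 to 264 ± 19.8 CPM, and 4 of the 4 tested rose. The sum of 8 Paneth cell markers ranged from 2342 to 44416 CPM between libraries with 0 of 8 called on the slope. Of 11 enteroendocrine markers 5 rose and 1 fell, and their sum was 2392 ± 376 CPM at V1, 663 ± 301 in V4 and 6430 ± 1631 in V6. Of 3 tested tuft cell markers 1 rose, and none of the 9 stromal and blood markers in the table passed the filter. Transcripts of the mitochondrial genome were 3.31% ± 0.886 of a library at V1, 9.45% ± 2.87 at V4 and 8.10% ± 1.21 at V6. In bulk samples, fewer cells of a type and less RNA per cell cannot be told apart. The part of these shifts in the results below was not tested, and values over V3 to V6, where the goblet sum was level, are given for the members called on the slope. Other sums still changed there, from V3 means of 61076 CPM for enterocyte, 95.4 for leukocyte and 1101 for enteroendocrine markers to the V6 means above. Fewer libraries enter these slopes, and for Slc25a10 the SE was 0.042 there against 0.021 over all zones.

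The family as a whole was lowest at the villus bottom. Its summed level was 3519 ± 187 CPM at V1, 4340 ± 198 in V2, 4948 ± 356 in V3, 5260 ± 352 in V4, 4889 ± 590 in V5 and 5015 ± 596 in V6. All 4 libraries of V1, at 3276 to 3731 CPM, lay below every library of V2 to V6, the lowest of which had 4105 CPM. As a plain share of library UMIs the family took 0.40% ± 0.0285 in V1, 0.498% ± 0.0502 in V3 and 0.452% ± 0.0458 in V6, and V1 overlapped V2, V4, V5 and V6 through mouse 1 of V1, at 0.442%. The highest mean moved from V4 to V3 and the difference between ends was smaller without TMM. With goblet markers also left out of the total, the mean shares of V1 and V6 were closer, at 0.437% and 0.456%. Slc25a5, an ADP/ATP carrier, made up 48.9% ± 6.81 of the family's UMIs in V1 and 49.9% ± 7.92 in V6, and without it and Slc25a3 the rest still summed to 1207 ± 93.7 CPM at V1 and 1714 ± 149 in V4. These sums carry no test.

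**Figure D1:**
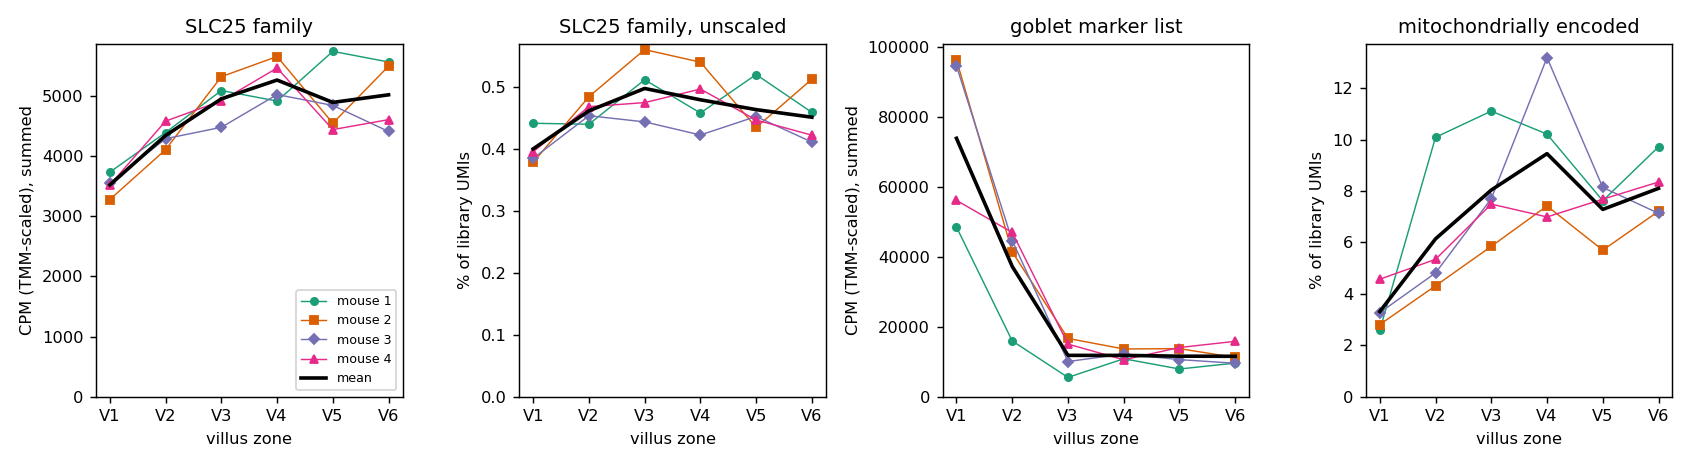
Sums per library by villus zone: the SLC25 family in TMM-scaled CPM, the family as a percent of library UMIs, the goblet marker list in CPM, and mitochondrially encoded transcripts as a percent of UMIs. Thin coloured lines are the 4 mice and the black line is their mean; the family sum is lowest in V1, where the goblet sum is highest.

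Of the 28 tested members, 9 rose on the slope, 4 fell and 15 were not called. Over all genes tested, 22.1% rose and 22.8% fell. The members' median slope was 0.050 against -0.0047 over all genes tested. With mouse as a block, 13 members rose and 4 fell, against 27.6% and 27.8% of all genes. The additional 4 were Slc25a3, Slc25a11, Slc25a38 and Slc25a46. In the contrast of tip and bottom, 10 members were higher in V6 than in V1 (20.2% of all genes) and 2 were lower (18.6% of all genes). With mouse as a block 14 were higher (26.7% of all genes) and 4 lower (24.7% of all genes). All 4 V6 libraries lay above all 4 V1 libraries in 8 tested members (17.9% of all genes), and below them in 2 (16.5% of all genes).

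The highest zone mean lay in V3 or V4 for 14 of the 28 tested members (50% of members, against 28.0% of all genes tested). It lay in V1 for 4 (14.3%, against 36.2%) and in V6 for 5 (17.9%, against 20.1%). Those 14 included the called risers Slc25a5, Slc25a10, Slc25a15 and Slc25a45, and also Slc25a39, which fell. Over V3 to V6 alone, 1 member was called upward, Slc25a22 (2.57% of all genes), and 0 downward in edgeR (0.0231% of all genes). At an unadjusted p under 0.05, 2 rose and 1 fell, but the share of all genes at that threshold was not counted. The uncalled slopes there were -0.15 for Slc25a28 and -0.088 for Slc25a39, further below 0 than their slopes over all zones of -0.11 and -0.054. With mouse as a block over V3 to V6, Slc25a22 rose and Slc25a51 fell (6.79% and 0.868% of all genes). Over V2 to V6, 3 members rose, namely Slc25a22, Slc25a44 and Slc25a25 (9.61% of all genes), and 0 fell in edgeR (2.85% of all genes). In that fit 3 fell at an unadjusted p under 0.05, where the share of all genes was not counted either. With mouse as a block over V2 to V6, 3 rose (16.9% of all genes) and 3 fell, namely Slc25a17, Slc25a28 and Slc25a39 (13.3% of all genes).

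**Figure D2:**
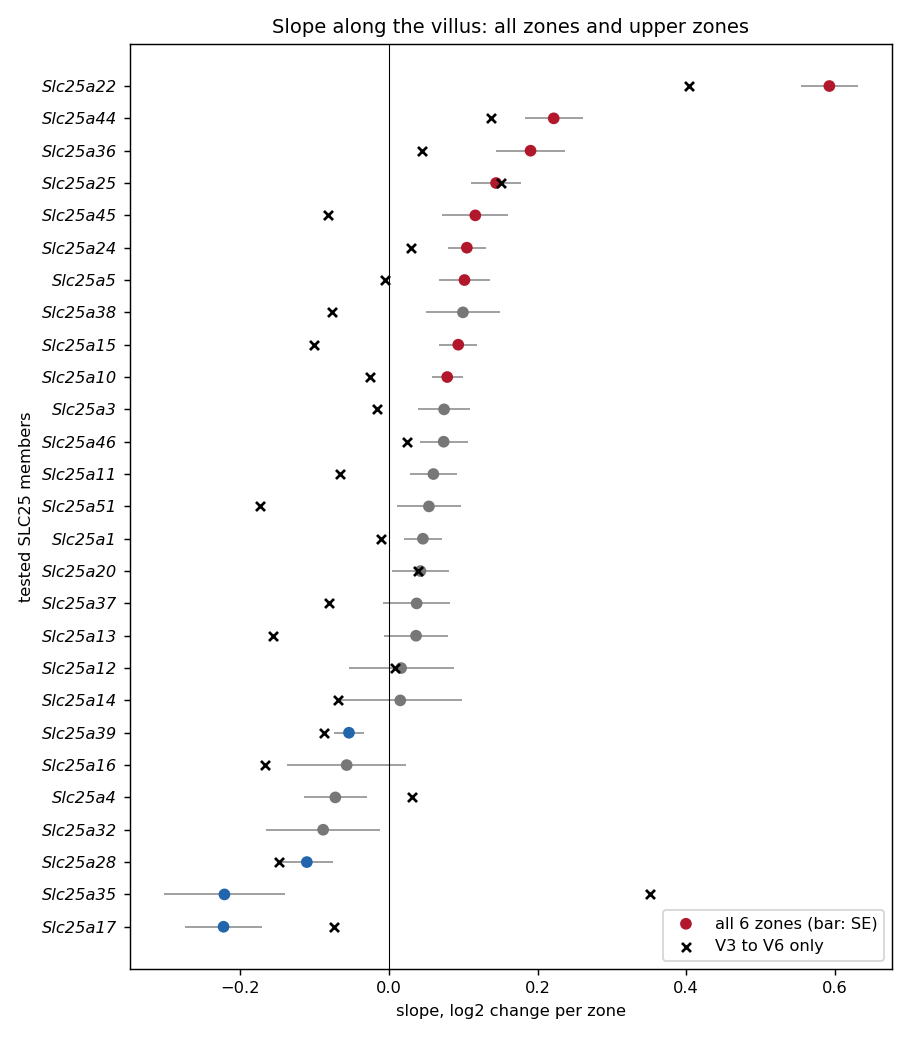
Slope of 27 tested members in log2 change per zone over all 6 zones (circles, bars are SE; red called upward, blue called downward, grey not called) and over V3 to V6 only (crosses, where the member passed the filter there). Slc25a22 stands at 0.59, and for most members called upward the V3 to V6 slope lies nearer to 0 or below it.

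The member with the highest slope was Slc25a22, the gene of a carrier that brings glutamate with a proton into the matrix. Its gene, ENSMUSG00000019082, is on the minus strand of chromosome 7 (141429744 to 141437892, GRCm38). In mice 1 to 4 it had 32.7, 30.3, 42.1 and 26.8 CPM at V1 and 45.7, 36.6, 54.5 and 69.6 in V2. In V3 the same mice had 108, 78.2, 109 and 88.5 CPM, and in V4 156, 148, 197 and 211. In V5 they had 193, 122, 244 and 162 CPM, and in V6 314, 192, 245 and 223. The V1 and V6 libraries did not overlap, and neither did V1 and V3. The means were 33.0 ± 6.55 CPM at V1 and 243 ± 51.8 in V6, a 7.39-fold difference that was in the same direction in 4 of 4 mice. The slope was 0.59 ± 0.038 (edgeR adjusted p = 4.2e-11), the 81st highest of 9328 genes. Straight lines through log2 CPM within mice 1 to 4 had slopes of 0.64, 0.54, 0.56 and 0.56. Over V3 to V6 it was 0.40 (adjusted p = 0.000838), and with plain total scaling over all zones 0.53 (adjusted p = 4.3e-11).

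Both enzymes of matrix glutamate named here missed the threshold on the slope. Glud1, glutamate dehydrogenase of the matrix, had 105 ± 24.3 CPM at V1 and 146 ± 62.6 in V6 with a slope of 0.060 ± 0.057 (edgeR adjusted p = 0.411). Got2, the matrix aspartate aminotransferase, had -0.11 ± 0.061 (adjusted p = 0.156), and with mouse as a block it fell (adjusted p = 0.0157).

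RefSeq promoter windows (250 bases before to 50 after a start, GRCm38.p6) were given for 32 of the 42 members and for 12 of the 15 described in full. The windows of the member with the highest slope, of another riser, and of the member with the lowest slope are shown 5′ to 3′ on the gene's strand, with matches to searched motifs in capitals. Slc25a22 has 3 annotated starts, and the most upstream is shown (chr7:141437825-141438124, minus strand). Slc25a36 is at chr9:97110992-97111291 and Slc25a17 at chr15:81360716-81361015, both on the minus strand.
Slc25a22: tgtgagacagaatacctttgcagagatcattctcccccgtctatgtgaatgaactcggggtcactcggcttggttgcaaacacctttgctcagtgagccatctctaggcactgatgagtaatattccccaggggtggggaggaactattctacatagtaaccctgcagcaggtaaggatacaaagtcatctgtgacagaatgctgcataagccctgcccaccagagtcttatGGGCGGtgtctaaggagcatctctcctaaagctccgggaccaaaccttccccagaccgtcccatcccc
Slc25a36: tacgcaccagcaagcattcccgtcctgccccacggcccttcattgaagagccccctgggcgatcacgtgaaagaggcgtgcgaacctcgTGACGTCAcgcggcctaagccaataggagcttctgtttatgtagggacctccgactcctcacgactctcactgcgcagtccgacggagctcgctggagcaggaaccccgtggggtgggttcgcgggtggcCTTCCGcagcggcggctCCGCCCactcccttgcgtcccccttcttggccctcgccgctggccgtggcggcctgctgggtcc
Slc25a17: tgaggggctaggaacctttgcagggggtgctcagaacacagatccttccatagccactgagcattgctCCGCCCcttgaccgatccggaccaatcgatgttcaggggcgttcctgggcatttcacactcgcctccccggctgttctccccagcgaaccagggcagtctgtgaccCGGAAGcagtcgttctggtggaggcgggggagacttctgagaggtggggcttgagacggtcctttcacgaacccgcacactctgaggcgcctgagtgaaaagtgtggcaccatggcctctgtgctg
The motifs were GGGCGG (GC box), CGGAAG (ETS core), TGACGTC (cyclic AMP response element core), GCATGCG (NRF1 core) and AAGGTCA (site of oestrogen-related receptors), searched on both strands. In the Slc25a36 window the run TGACGTCA holds overlapping matches to the response element core on both strands. Shares are of genes with a window, each counted when any of its windows held a match. GGGCGG was in 19 of 21 tested members (90.5%, against 70.0% of 6641 tested genes and 38.2% of all genes). CGGAAG was in 9 of 21 (42.9%, against 38.3% and 18.8%), and TGACGTC in 3 of 21 (14.3%, against 6.54% and 3.6%). GCATGCG and AAGGTCA were in 0 of 21 (against 7.74% and 4.10% of tested genes, and 4.01% and 5.38% of all genes). The riser Slc25a22 and the faller Slc25a17 both held GGGCGG. A match describes letters in these windows alone.

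Among carriers of amino acids and glutathione, 3 of 7 tested members rose and 1 fell (22.1% and 22.8% of all genes). Classes as small as this and those below were not tested against all genes. Besides Slc25a22, the gene of the branched-chain amino acid carrier, Slc25a44, rose. In mice 1 to 4 it had 20.03, 25.7, 30.9 and 20.2 CPM at V1 and 52.9, 42.8, 65.1 and 50.8 in V6, with no overlap. The slope was 0.22 ± 0.039 (edgeR adjusted p = 8.5e-05), and over V3 to V6 it was 0.14 without passing the test (adjusted p = 0.576). Slc25a44 is on chromosome 3 (88410498 to 88425139, minus strand) of GRCm38.

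Slc25a15, the gene of the ornithine-citrulline exchanger used by the urea cycle and by citrulline synthesis, was highest in the middle. It had 102, 90.4, 81.7 and 80.9 CPM at V1, 184, 183, 118 and 165 in V4, and 156, 145, 106 and 126 in V6 (mice 1 to 4). Every V4 and every V6 library was above every V1 library. Its slope was 0.093 ± 0.026 (edgeR adjusted p = 0.00516), or without mouse 2 0.077 (adjusted p = 0.0526), but over V2 to V6 it was -0.018 and over V3 to V6 -0.10, neither called. The curvature, the coefficient of the squared zone number, was -0.095 ± 0.018 (adjusted p = 0.00118), with the maximum mean of 162 ± 30.7 CPM in V4. The matrix enzymes Otc and Cps1, which make citrulline and its precursor, were read beside it. Otc had a slope of -0.024 ± 0.023 (adjusted p = 0.405), and Cps1 fell from 121 ± 60.3 to 45.0 ± 17.0 CPM with a slope of -0.33 ± 0.089 (adjusted p = 0.00514).

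Slc25a39, the gene of a mitochondrial glutathione carrier, fell by a small amount. In mice 1 to 4 it had 212, 229, 228 and 224 CPM at V1 and 204, 171, 157 and 209 in V6. All V6 libraries lay below all V1 libraries, and the slope was -0.054 ± 0.020 (edgeR adjusted p = 0.0336). With mouse as a block and all 4 mice the adjusted p was 0.00958. Without a block, leaving out any single mouse gave 0.0568 to 0.212, so that call rested on all 4 mice. It was also lost over V3 to V6 (-0.088, adjusted p = 0.478). Slc25a38, the gene of the carrier that brings in glycine for heme synthesis, had 21.1 ± 7.85 CPM at V1, 37.4 ± 11.6 in V4 and 28.9 ± 5.67 in V6. Its slope of 0.10 ± 0.050 was not called (adjusted p = 0.109) unless mouse was a block (adjusted p = 0.0131). The aspartate-glutamate carrier genes of the malate-aspartate shuttle, Slc25a12 and Slc25a13, had slopes of 0.016 ± 0.071 and 0.036 ± 0.044 and were not called. Slc25a12 stood at 4.12 ± 1.19 CPM at V1 and 5.13 ± 2.92 at V6. Slc25a13 had its highest mean in V3, at 17.9 ± 2.34 CPM against 10.9 ± 2.02 at V1 and 12.4 ± 2.67 at V6.

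Carriers of adenine nucleotides and phosphate rose in 3 of 5 tested members, with 0 falling (22.1% and 22.8% of all genes). Slc25a5, the ADP/ATP exchanger of proliferating tissues, lies on chromosome X (36795651 to 36798807, GRCm38). In mice 1 to 4 it had 2100, 1737, 1550 and 1497 CPM at V1, 2627, 3294, 2270 and 2490 in V4, and 2949, 3274, 1862 and 2063 in V6. V4 lay wholly above V1, while V6 overlapped V1 through mouse 3 and mouse 4, though V6 was above V1 in 4 of 4 mice. The slope was 0.10 ± 0.034 (edgeR adjusted p = 0.0180), or 0.097 with mouse as a block (adjusted p = 2.2e-04). In fits without a block it lost the call without mouse 1 (adjusted p = 0.0830), without mouse 2 (adjusted p = 0.0763) and with plain total scaling (slope 0.033, adjusted p = 0.443). Over V3 to V6 the slope was -0.0051. A row for its pseudogene, Slc25a5-ps, held 72 UMIs in all against 85901 for Slc25a5, and reads shared between them or with other copies were not told apart here.

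Slc25a4, the ADP/ATP exchanger of heart and muscle, was not called. It had 21.6, 18.3, 22.9 and 14.3 CPM at V1 and 22.5, 16.8, 13.4 and 12.4 in V6, with overlapping groups and a slope of -0.072 ± 0.042 (edgeR adjusted p = 0.167). With plain total scaling the slope of Slc25a4 was -0.14 and was called (adjusted p = 0.00633). The difference between the slopes of Slc25a4 and Slc25a5 was not tested.

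Slc25a3, the phosphate carrier gene, had 491, 419, 681 and 773 CPM at V1, 715, 709, 1030 and 1051 in V4, and 790, 714, 907 and 881 in V6 (mice 1 to 4). Mice 3 and 4 lay above mice 1 and 2 in every zone, and V6 was above V1 in 4 of 4 mice. The slope of 0.074 ± 0.035 was not called (edgeR adjusted p = 0.0858) but was called with mouse as a block (0.080, adjusted p = 4.1e-04). The index barcodes, read as pools, follow the mice except that the V1 library of mouse 2 shares the barcode of mouse 1, so mouse and pool can hardly be told apart.

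Both tested genes of calcium-regulated ATP-magnesium/phosphate carriers, which set the size of the matrix nucleotide pool, rose. Slc25a24 had 37.9, 45.7, 47.0 and 43.4 CPM at V1 and 76.0, 73.9, 60.8 and 68.4 in V6, with no overlap and a slope of 0.10 ± 0.025 (edgeR adjusted p = 0.00194). Its mean had reached 58.8 ± 6.56 CPM in V2, and over V2 to V6 the slope was 0.046 (adjusted p = 0.404), and over V3 to V6 0.030 (adjusted p = 0.922). Slc25a25 had 17.2 ± 2.35 CPM at V1, 18.1 ± 2.64 in V3 and 25.1 ± 5.41 in V6, a slope of 0.14 ± 0.033 (adjusted p = 0.00133), and 0.17 over V2 to V6 (adjusted p = 0.0146). Over V3 to V6 its slope was 0.15 (adjusted p = 0.368), and the difference between Slc25a24 and Slc25a25 was not tested. In mice 1 to 4 its V1 values were 18.4, 16.6, 14.2 and 19.6 CPM and its V6 values 31.0, 18.5, 27.6 and 23.5, which overlap through mouse 2.

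**Figure D3:**
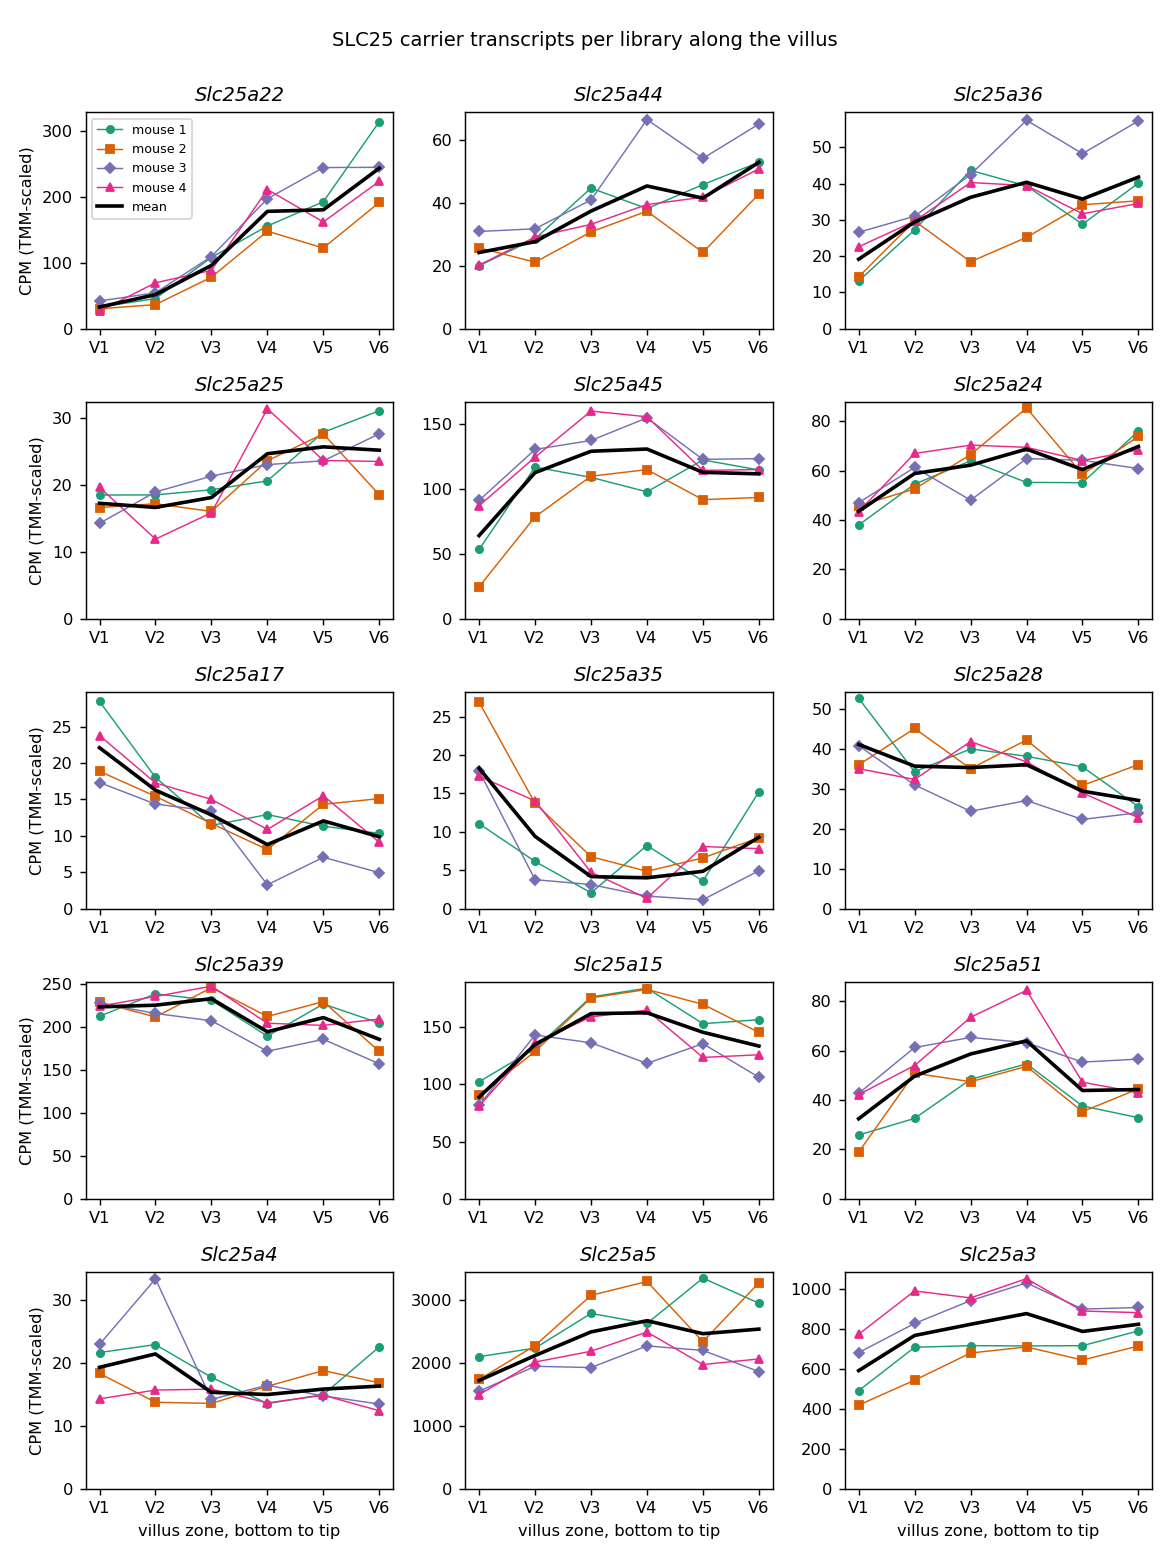
TMM-scaled CPM of the 15 members described in full, 1 panel per gene, against villus zone, with a coloured line for each of the 4 mice and the mean in black. Slc25a22 climbs to V6 in the mean, Slc25a15 and Slc25a51 are highest in V4, and Slc25a35 is lowest there.

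Of the di- and tricarboxylate carriers, 1 of 3 rose (22.1% of all genes). Slc25a10, whose product exchanges malate and succinate for phosphate, went from 119 ± 7.43 CPM at V1 to 166 ± 17.2 in V4 and 156 ± 17.8 in V6, with a slope of 0.078 ± 0.021 (edgeR adjusted p = 0.00392). The call was lost without mouse 1 (adjusted p = 0.0862) and over V2 to V6 (0.037, adjusted p = 0.410), and over V3 to V6 the slope was -0.025. Slc25a11, the oxoglutarate-malate exchanger gene, had 134 ± 30.7, 200 ± 42.5 and 176 ± 18.4 CPM at V1, V4 and V6, and its slope of 0.060 ± 0.032 was called with mouse as a block alone (adjusted p = 0.127, and 0.00757 with the block). Slc25a1, the citrate exporter gene, had 127 ± 16.4 CPM at V1 and 150 ± 33.2 in V6 without a call (adjusted p = 0.145). Slc25a20, the carnitine-acylcarnitine carrier that admits fatty acids for oxidation, had 57.1 ± 7.81 and 64.9 ± 10.0 CPM at the ends. It was higher at the tip in 4 of 4 mice but was not called (slope 0.042 ± 0.038, adjusted p = 0.380).

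Cofactor and nucleotide carriers went in both directions, with 1 of 6 tested members up and 1 down (22.1% and 22.8% of all genes). Slc25a36, the gene of a pyrimidine nucleotide carrier, had 13.2, 14.3, 26.6 and 22.6 CPM at V1 and 40.1, 35.3, 57.3 and 34.5 in V6 (mice 1 to 4). The groups did not overlap, and the slope was 0.19 ± 0.047 (edgeR adjusted p = 0.00215). Over V2 to V6 it was 0.10 (adjusted p = 0.258) and over V3 to V6 0.045 (adjusted p = 0.935), without a call. The matching carrier gene Slc25a33 was too low to test, at 5.25 CPM at V1 and 2.36 in V6 in the mean.

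Slc25a17, whose product sits in the peroxisomal membrane and carries coenzyme A, FAD and NAD, had the lowest slope, just below that of Slc25a35. It had 28.5, 18.9, 17.3 and 23.8 CPM at V1, 11.4, 11.7, 13.4 and 15.02 in V3, and 10.3, 15.1, 4.95 and 9.12 in V6. The V1 libraries lay above all those of V3 and V6. The slope was -0.22 ± 0.052 (edgeR adjusted p = 0.00140), lower at the tip in 4 of 4 mice, and over V3 to V6 it was -0.074 (adjusted p = 0.909).

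Slc25a51, the gene that imports NAD into mitochondria, had a maximum in the middle. In mice 1 to 4 it had 25.8, 18.9, 42.7 and 42.2 CPM at V1, 54.6, 53.6, 63.2 and 84.4 in V4, and 32.8, 44.5, 56.6 and 43.0 in V6. V4 lay above V1 with no overlap, V6 overlapped V1, and V4 overlapped V6 through mouse 3 of V6. The curvature was -0.11 ± 0.029 (edgeR adjusted p = 0.0222). In fits without a block the call was lost without mouse 1 (adjusted p = 0.0793), mouse 2 (adjusted p = 0.0581) or mouse 4 (adjusted p = 0.165). The adjusted p of the curvature was 3.5e-05 with mouse as a block and all 4 mice. With mouse as a block, the slope from V3 to V6 was -0.18 (adjusted p = 0.0164). Without a call were Slc25a32 (folate and FAD; slope -0.089 ± 0.076) and Slc25a16 (-0.057 ± 0.080). Their means were 5.69 to 7.26 CPM at V1 and 3.38 to 5.95 at V6.

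On the curvature, 5 of 28 members were called (7.43% of all genes), or 11 with mouse as a block (21.9% of all genes). The 5 were Slc25a15, Slc25a51, Slc25a45 and Slc25a22, each with a negative sign, and Slc25a35 with a positive one. The curvature calls of Slc25a22 and Slc25a45 were lost without mouse 1, mouse 3 or mouse 4 and with plain total scaling. Those fits had no block, and with mouse as a block and all 4 mice the edgeR adjusted p was 9.4e-04 and 1.8e-04. Over all zones together, 11 members differed (27.4% of all genes), or 17 with the block (48.6% of all genes). Over V2 to V6 alone and over V3 to V6 alone, 1 member differed, Slc25a22, against 6.71% and 1.68% of all genes.

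**Figure D4:**
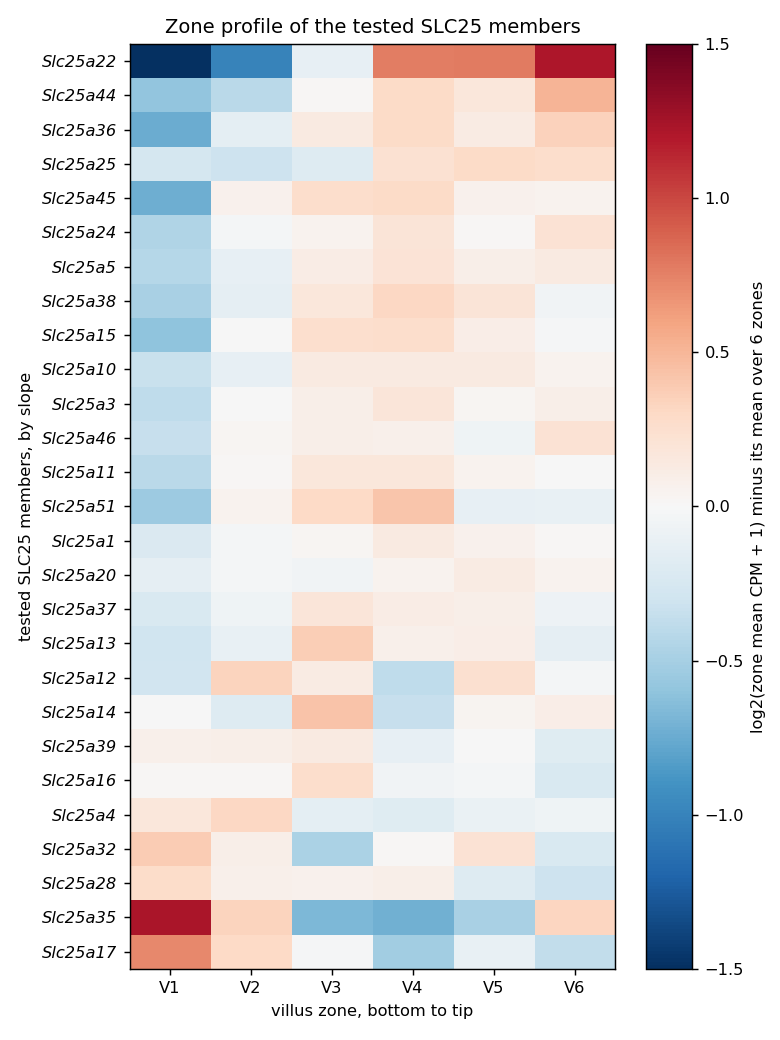
Zone means of 27 tested members as log2(mean CPM + 1) minus each gene's mean over the 6 zones, with genes ordered by slope from top to bottom. Red is above and blue below the gene's own mean; Slc25a22 at the top runs from blue in V1 to red in V6, and many rows below it are bluest in V1.

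The mitoferrin genes, whose products import iron for heme and iron-sulphur clusters, gave different calls. Slc25a28, the broadly expressed one, had 52.7, 36.0, 40.8 and 35.1 CPM at V1 and 25.5, 36.1, 24.05 and 22.8 in V6, and it fell with a slope of -0.11 ± 0.035 (edgeR adjusted p = 0.0135). V6 overlapped V1 through mouse 2, and the call was lost without mouse 1 (adjusted p = 0.0905) or mouse 4 (adjusted p = 0.0596), and over V3 to V6 (-0.15, adjusted p = 0.477). Slc25a37, the erythroid one, had 17.8 ± 8.69 and 19.8 ± 3.02 CPM at the ends and a slope of 0.037 ± 0.045 without a call (adjusted p = 0.524). The difference between their slopes was not tested.

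Members without an assigned substrate here also diverged. Slc25a45 had 53.2, 24.6, 90.9 and 86.8 CPM at V1, 97.5, 115, 154 and 155 in V4, and 114, 93.2, 123 and 115 in V6. Its V6 lay above V1 with no overlap and the slope was 0.12 ± 0.044 (edgeR adjusted p = 0.0364). It was -0.019 over V2 to V6 and lost the call without mouse 1 (adjusted p = 0.173), without mouse 2 (adjusted p = 0.0642) and with plain total scaling (0.053, adjusted p = 0.289). Slc25a46, which acts in the outer mitochondrial membrane, went from 23.0 ± 4.32 to 34.3 ± 3.33 CPM and was higher in V6 than in V1 (log2 difference 0.57, adjusted p = 0.0214), though its slope was not called (0.074 ± 0.033, adjusted p = 0.0679; 0.0452 with mouse as a block). The difference lost its call without mouse 1 (adjusted p = 0.0737), mouse 2 (adjusted p = 0.179) or mouse 4 (adjusted p = 0.0589) and with plain total scaling (0.24, adjusted p = 0.319). Those fits had no block, and with mouse as a block and all 4 mice the edgeR adjusted p of the difference was 0.00852.

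Slc25a35 was high at the bottom and lowest in the middle. It had 11.1, 26.9, 17.9 and 17.2 CPM at V1, 8.23, 4.88, 1.64 and 1.36 in V4, and 15.2, 9.24, 4.95 and 7.82 in V6 (mice 1 to 4). V4 lay below V1 with no overlap, and mouse 1 had more in V6 than in V1. The slope was -0.22 ± 0.081 (edgeR adjusted p = 0.0294). It lost the call without mouse 2 (adjusted p = 0.170), 3 (adjusted p = 0.0951) or 4 (adjusted p = 0.0920), and was 0.35 over V3 to V6 without a call. The curvature was 0.26 ± 0.059 (adjusted p = 0.00648). Slc25a35 (chromosome 11, 68968131 to 68974365, GRCm38) is overlapped at its 3-prime end by Rangrf on the opposite strand, and whether counting used strand is not given in the sources used here, so their reads may not be told apart. Rangrf fell from 16.0 ± 6.16 CPM at V1 to 4.80 ± 1.58 in V6 (slope -0.31 ± 0.069, adjusted p = 8.9e-04). Slc25a14, of the uncoupling protein-like group, had 4.96 CPM at V1, 5.43 at V6 in the mean and a slope of 0.015 ± 0.083 without a call.

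The other 14 members held 0 to 169 UMIs over all 24 libraries and did not pass the filter. Slc25a34 had the most, with 169 UMIs and a mean of 1.04 ± 0.895 CPM at V1 and 5.60 ± 1.57 in V6. Mice 1 to 4 had 0, 3, 3 and 1 UMIs at V1 and 7, 8, 6 and 11 at V6, with no overlap. It rose when no filter was applied (slope 0.37 ± 0.089, edgeR adjusted p = 0.00157). It passed the filter and rose when mouse 1, 2 or 3 was left out (0.35 to 0.43, adjusted p = 0.00384 to 0.00975). These fits share libraries and rest on the same few UMIs at V1, so they do not count as separate support. In the main fit Slc25a34 was not tested. Next came Slc25a33 with 115, Slc25a42 with 109, Slc25a26 with 106 and Slc25a40 with 78 UMIs. Slc25a23 had 39, Slc25a29 had 31, Slc25a47 had 30, Slc25a53 had 22, Slc25a48 had 18 and Slc25a43 had 17. Slc25a27 had 2 UMIs, Slc25a2 had 1 and Slc25a30 had 0. No difference between zones was read from the counts of members other than Slc25a34. The neighbours Slc25a29 and Slc25a47 on chromosome 12 were both in this group.

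Genes outside the family that work with these carriers were read in the same fit. Of 19 tested genes of mitochondrial transport with other names, 4 rose and 2 fell on the slope (22.1% and 22.8% of all genes), or 7 and 4 with mouse as a block (27.6% and 27.8% of all genes). Vdac2, a pore of the outer membrane, rose from 269 ± 47.3 to 512 ± 29.2 CPM (slope 0.19 ± 0.031, edgeR adjusted p = 3.1e-05). Mcu, the pore of the calcium uniporter, rose with a slope of 0.076 ± 0.021. Tspo, of the outer membrane, fell (-0.11 ± 0.022). Mtch2, an outer membrane relative of the family and the most abundant of the list, was not called (-0.015 ± 0.023, adjusted p = 0.610).

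Of 35 tested partner enzymes, 12 rose and 8 fell (22.1% and 22.8% of all genes), or 14 and 11 with mouse as a block (27.6% and 27.8% of all genes). Gpd2, the mitochondrial end of the glycerol phosphate shuttle, rose from 99.2 ± 24.6 to 322 ± 64.4 CPM (slope 0.34 ± 0.041, edgeR adjusted p = 8.3e-07). Citrate synthase, Cs, rose from 260 ± 55.4 to 517 ± 41.1 CPM (slope 0.19 ± 0.028), while the citrate exporter Slc25a1 had a slope of 0.046 ± 0.025. Mdh1 and Mdh2, malate dehydrogenases of cytosol and matrix, rose with slopes of 0.16 ± 0.025 and 0.068 ± 0.024. Crat, carnitine acetyltransferase, rose with 0.17 ± 0.028, while the carrier Slc25a20 was not called.

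Scaling moved all of these values together. With plain total scaling the median difference of V6 from V1 over all genes shifted from -0.00071 to -0.33 (log2), and that of the 28 members from 0.36 to 0.017. The upward calls of Slc25a5, Slc25a10, Slc25a15, Slc25a24, Slc25a25 and Slc25a45 were lost under it, with slopes of 0.033, 0.012, 0.026, 0.039, 0.077 and 0.053. Of the 13 members called on the slope, 0 changed sign under it, while 8 of the 15 others did. Under it 3 members rose (13.1% of all genes) and 6 fell (39.6%) on the slope, 3 were higher (12.4%) and 5 lower (33.1%) in V6, 8 differed over all zones (35.4%) and 3 were called on the curvature (7.02%). Among the 2702 genes that averaged 50 CPM or more, which hold 11 members, 6 members rose (36.8% of those genes) and 1 fell (25.6%) on the slope. In that set 6 members were higher (34.9%) and 1 lower (22.2%) in V6, 5 differed over all zones (47.4%) and 5 were called on the curvature (18.4%).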

How the data were processed

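Polyadenylated RNA of sorted jejunal epithelial zones was read with mcSCRB-seq, a 3-prime bulk method with molecular identifiers, in 24 libraries from 4 mice. What the authors deposited is a matrix of unnormalised UMI counts, genes by libraries. The submitters' processing notes name bcl2fastq 2.15.0.4 and GRCm38, and the matrix is named after zUMIs. Aligner, annotation and filters before deposit: not given in the sources used. Intervals and standard errors do not cover loss of molecules before counting.

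Counts were tested with edgeR 4.0.16 (R 4.3.3, limma 3.58.1) with TMM, filterByExpr (minimum count 10, minimum total 15), 1 mean per zone and 18 residual degrees of freedom. The contrasts were the slope over zones, V6 against V1, any difference and the coefficient of the squared zone number. P-values were adjusted over all 9328 genes tested. The scripts were tested on simulated data. CPM per library used the TMM-scaled totals. The mice are the labels' replicate numbers, shared by the 6 zones. Deviations from the zone means correlated above 0.1 in 60 of 60 same-mouse pairs (lowest 0.184, mean 0.422). Fits with mouse as a block (15 degrees of freedom) are therefore given where they change a member's slope call. Changed calls on the other contrasts are given mainly as counts of members. Among the 36 pairs of libraries from the same zone, none was alike within counting noise, and pairs across zones were not compared. Alternatives were DESeq2 1.42.0 and its size factors, total scaling, no filter, genes averaging 50 CPM or more, each mouse left out, and zones V2 to V6 or V3 to V6. Fits with a mouse left out had no block. With the block and all 4 mice over all zones, the 9 members that rose and the 4 that fell on the slope kept their calls. The fit over V2 to V6 with the block, and member slopes over V3 to V6 with it, were added after seeing the data.

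Members were chosen by symbol. Values per library are given for the 6 highest and the lowest slopes (up to 6) among called members, the 3 members with the smallest adjusted p of the curvature, and Slc25a3, Slc25a4 and Slc25a5. From the lists of other genes, the most abundant gene and the 4 called genes of lowest adjusted p are named. Glud1, Got2, Otc, Cps1 and Rangrf were named in addition, after their values were seen. The members and the lists of markers, partner enzymes and other transport genes were chosen with earlier results of these data known. Loci are from GENCODE M21, and promoter windows from RefSeq. Protein sequences were not analysed here. A few genes, 1 tested member among them, enter the counts and sums but are not reported here.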

Additional observations from a re-analysis of the deposited data

Results flagged for a closer look

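In 3 cases a single library stood apart from the other 3 of its zone among the 90 sets of 4 libraries examined (15 members in 6 zones), where chance alone flags about 1 in 20 sets. Slc25a44 in V4 had 66.5 CPM in mouse 3, against 37.4 to 39.5 in the other mice. Slc25a36 in V3 had 18.5 CPM in mouse 2, against 40.3 to 43.7. Slc25a4 in V5 had 18.7 CPM in mouse 2, against 14.7 to 14.9.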

How the results depend on the processing

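DESeq2, its size factors and dropping the filter kept every count of called members within 1.5 times its main value. With mouse as a block, 4 members were lower in V6, 17 differed over all zones, 11 were called on the curvature, and 7 other transport genes rose and 4 fell. With plain total scaling 3 members rose on the slope, 3 were higher and 5 lower in V6, and 3 were called on the curvature. With a mean of at least 50 CPM, which leaves 11 members, 1 fell on the slope, 6 were higher and 1 lower in V6, and 5 differed over all zones. Over V2 to V6, 3 rose, 0 fell in edgeR (3 at an unadjusted p under 0.05) and 1 differed over all zones; with the block 3 rose. Over V3 to V6, 1 rose, 0 fell (1 unadjusted) and 1 differed over all zones; with the block 1 rose and 1 fell. Without 1 mouse each, 7 to 10 rose, 1 to 2 fell, 6 to 10 were higher and 1 to 2 lower in V6, 3 to 7 differed over all zones and 2 to 4 were called on the curvature. Leaving out mouse 1 gave 6 higher in V6, and leaving out mouse 1 or mouse 4 gave 3 over all zones. Shares of all genes were not counted without a mouse or at an unadjusted p, so those member counts cannot be set against them. The family share without goblet markers in the total was 0.437% in V1, 0.482% in V2, 0.504% in V3 and 0.456% in V6. Without mitochondrially encoded transcripts it was 0.414% in V1, 0.492% in V2 and 0.492% in V6.

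Slopes changed sign mainly when the lowest zones were left out, and the cause was not tested. Over V2 to V6, V3 to V6, V3 to V6 with the block and V2 to V6 with the block, Slc25a45 had -0.019, -0.083, -0.079 and -0.018, Slc25a35 had 0.011, 0.35, 0.37 and 0.031, Slc25a15 had -0.018, -0.10, -0.10 and -0.020, and Slc25a51 had -0.071, -0.17, -0.18 and -0.071. Slc25a51 had -0.0099 with plain total scaling. Over V3 to V6 without and with the block, Slc25a4 had 0.031 and 0.033, Slc25a5 had -0.0051 and -0.0092, and Slc25a3 had -0.016 and -0.012. Of the other alternatives for the 15 members' slopes, 113 kept direction and call, 42 lost the call and 2 gained it. Without the filter Slc25a34 was gained on the slope, in V6 against V1 and over all zones, while Slc25a39 and Slc25a45 lost the slope and Slc25a10 and Slc25a25 the difference of V6 from V1. Depth limits the other 13 members under the filter.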
